A study of Mus musculus with 6 samples.

Results

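Among the 35976 gene symbols counted in bulk poly(A) RNA from mouse liver, 40 genes of mitosis and cytokinesis were described as a set. The set was a fixed list of symbols, each matched exactly to the table, and all 40 were found. The study compared livers of male mice of the genotypes IRE1PKO and IRE1fl, with 3 libraries of each, all fed a diet labelled HFD, read here as a high-fat diet. Every liver was collected after 16 hours of fasting and 4 hours of renewed feeding. IRE1, encoded by Ern1, is a stress sensor of the endoplasmic reticulum, and the IRE1fl animals carry the floxed allele. The labels do not expand PKO, although the series title speaks of the pituitary and the liver. No source used here gives the Cre driver or the ages, or says whether each library came from its own animal. The p-values therefore rest on the spread between libraries, which may be technical.

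Cells enter mitosis when cyclin B and its kinase CDK1 become active, after which a bipolar spindle captures chromosomes through their kinetochores. A checkpoint holds the anaphase-promoting complex (APC/C) in check until every kinetochore is attached. Its activator CDC20 then triggers chromosome separation and cyclin destruction, and the central spindle directs the cleavage furrow. Most genes of this program are silent in resting cells, where the DREAM complex represses them, and are switched on in late G2 by B-MYB and FOXM1. Adult hepatocytes rarely divide, and many become binucleate or polyploid because cytokinesis was skipped.

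Each library held between 35776219 and 39277435 counts, of which the 40 genes together took only 0.00275% to 0.00348% of the counts in IRE1fl and 0.00546% to 0.00886% in IRE1PKO. The hepatocyte markers summed to between 74446 and 97442 counts-per-million (CPM, on library sizes scaled by TMM), and none of the 10 was at 0 in any library. Ern1 levels were 49.3 to 61.2 CPM in IRE1fl against 36.6 to 45.7 CPM in IRE1PKO (log2 fold change -0.44, SE 0.11, edgeR adjusted p = 0.0357). Were Ern1 deleted only in another organ, these liver levels would check no label.

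Of the 40 genes of mitosis and cytokinesis, 14 rose in IRE1PKO livers, none fell, and the others did not pass or could not be tested. Summed over the 40 genes, IRE1fl libraries 1 to 3 stood at 35.0, 31.5 and 29.1 CPM, and IRE1PKO libraries 1 to 3 at 54.5, 62.0 and 84.5 CPM. The groups did not overlap, and the means were 31.9 ± 2.96 and 67.0 ± 15.6 CPM (SD, n = 3 each), a ratio of 2.10, with no test of the sum. In bulk liver, a change in the number of dividing cells and a change in RNA per cell cannot be told apart.

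Single genes were compared with edgeR's quasi-likelihood test, adjusted by the Benjamini-Hochberg method over all 14954 tested genes at a threshold of 0.05. Of the 40 genes, 38 passed the filter on low counts, 14 of them rose and none fell, where 5.68% of all tested genes were called higher and 3.86% lower (9.54% in either direction). None of the 38 was lower at an unadjusted p under 0.05, and neither DESeq2 nor limma-voom called any lower. The fitted log2 fold change, IRE1PKO over IRE1fl, was above 0 for 37 of 38 (49.8% of all tested genes) and was 1 or more for 29 (4.11%). At an unadjusted p under 0.05, 30 were higher (13.5%). Every IRE1PKO library lay above every IRE1fl library for 29 of the 38 (16.0%), and for 31 of all 40. The median log2 fold change of the tested members was 1.32, against -0.0014 over all tested genes. The filter asked for 3 libraries above 0.266 CPM, and 15 of the 38 met it through IRE1PKO without all IRE1fl libraries reaching it, among them 8 of the 14 that rose. These counts and the median therefore describe the set and are no independent support. Of the 17 members with a mean of at least 1 CPM over all libraries, 4 rose (Top2a was not among them), with a median of 1.10. This filter is also raised by the higher group, since some of the 17, Cdc20 among them, reached 1 CPM only in IRE1PKO.

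**Figure D1:**
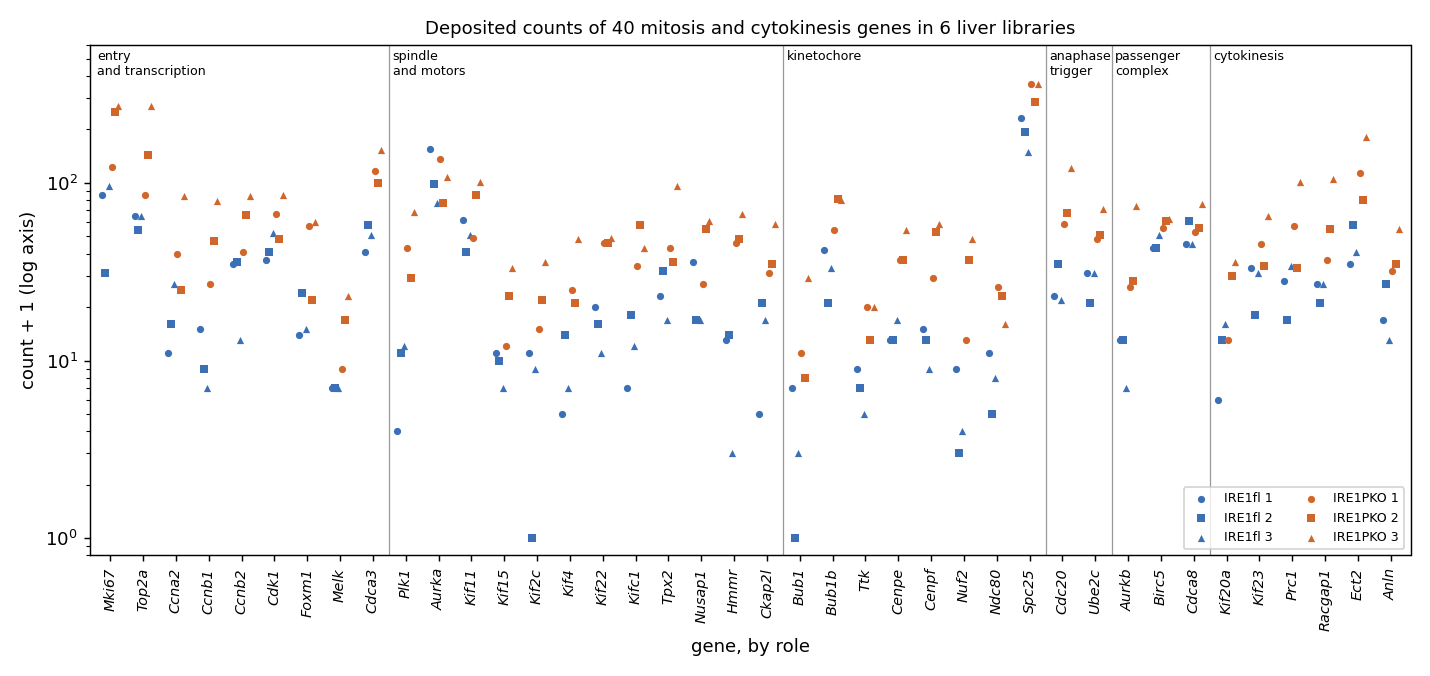
Deposited counts plus 1 (log axis) of the 40 genes in each library, grouped by role, with IRE1fl in blue and IRE1PKO in orange and a marker shape for each replicate number. The orange points lie above the blue ones for 31 genes, and Aurka, Cdca8 and Kif11 are among those where they mix.

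The number of calls depended on which libraries were fitted, and was lowest without IRE1PKO 3. IRE1PKO 3 held the highest value of the 6 libraries for 31 of the 40 genes, IRE1PKO 2 for 5, IRE1PKO 1 for 3 and IRE1fl 1 for 1. The lowest value was always in an IRE1fl library. Within IRE1PKO, the lowest value fell in IRE1PKO 1 for 25 genes, IRE1PKO 2 for 14 and IRE1PKO 3 for 1. Without IRE1PKO 3, edgeR called 0 of the 38 tested members, although 37 still had a fold change above 0, 17 were higher at an unadjusted p under 0.05, and the median was 1.05. On the same 5 libraries DESeq2 called 10 members higher and limma-voom 2. Over all 15288 genes tested there, edgeR called 5.15% higher (788 genes), DESeq2 7.61% and limma-voom 5.55%. The limma-voom count of 2 among 38 is near its general share. With all 6 libraries the shares of all genes were 5.68% with edgeR, 7.9% with DESeq2 and 5.57% with limma-voom. Leaving out each other library gave 8 calls without IRE1fl 1, 6 without IRE1fl 2, 2 without IRE1fl 3, 6 without IRE1PKO 1 and 3 without IRE1PKO 2. The share of all genes called in each of these fits is not set beside these counts, and the lowest, 2 and 3, may be near it. Calls over all genes also fell in some of these fits, so such losses were not particular to the members. None of the 14 calls held without every library in turn. The medians in these fits lay between 1.05 and 1.47.

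**Figure D2:**
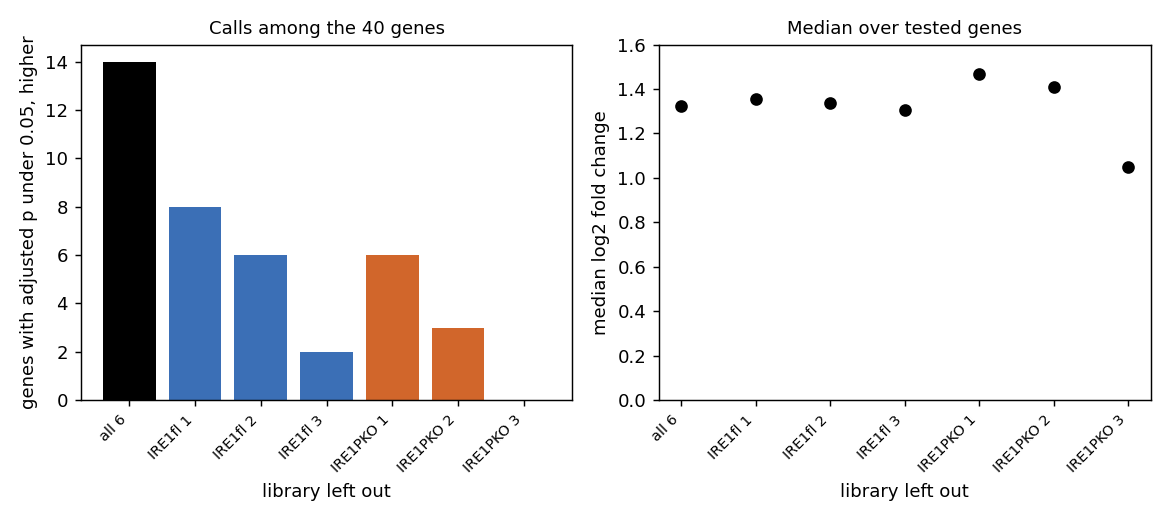
Left, the number of members with an edgeR adjusted p under 0.05 and a higher level in IRE1PKO, with all 6 libraries (black bar) and with each library left out. Right, the median log2 fold change of the tested members in the same fits. The number of calls drops from 14 to between 0 and 8, while the median stays between 1.05 and 1.47.

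**Figure D3:**
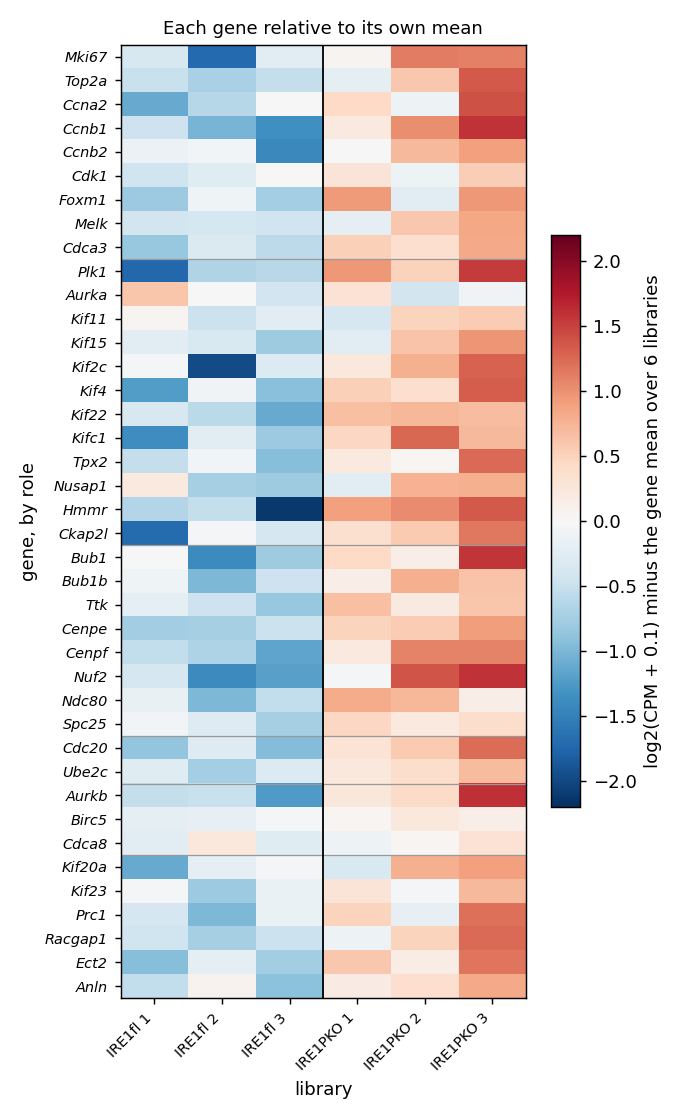
Level of each gene in each library as log2(CPM + 0.1) minus the gene's mean over the 6 libraries, with rows grouped by role and the genotypes parted by a black line. Most rows are blue in IRE1fl and red in IRE1PKO, and the IRE1PKO 3 column is the highest of the 6 for 31 rows.

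Promoter sequences are shown because this program is classically controlled through sites in promoters. The cell cycle genes homology region (CHR) is the site of the DREAM and B-MYB complexes, and CCAAT boxes are bound by NF-Y. RefSeq promoters on GRCm38.p6 were at hand for 35 of the 40 members, and the 250 bases upstream of each start were searched on both strands for CHR letters (TTTGAA or the variant TTCGAA) and for the letters CCAAT. Of the 35 members, 27 held a CCAAT match (77.1%), against 39.5% of 17492 protein-coding genes. CHR letters were present for 14 (40%, against 18.4%), and both for 12 (34.3%, against 6.83%). No member promoter had a base shared by both motifs. Among the 13 promoters of members that rose, 12 held CCAAT and 4 CHR letters, and among the 20 of tested members that were not called, 14 and 10. A difference between these shares was not tested, and a match is a string of letters, not a measured binding site.

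Below are the 200 bases upstream of the start for 6 members that rose and for 2 that were not called, 5′ to 3′ on the gene's strand, with CHR and CCAAT matches in capitals on either strand.
Cdc20 (chr4:118437344-118437543, minus strand): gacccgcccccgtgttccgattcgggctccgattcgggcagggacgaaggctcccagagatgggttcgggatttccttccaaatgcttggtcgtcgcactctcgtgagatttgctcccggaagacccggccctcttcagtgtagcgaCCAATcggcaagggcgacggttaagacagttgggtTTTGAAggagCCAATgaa
Top2a (chr11:99024190-99024389, minus strand): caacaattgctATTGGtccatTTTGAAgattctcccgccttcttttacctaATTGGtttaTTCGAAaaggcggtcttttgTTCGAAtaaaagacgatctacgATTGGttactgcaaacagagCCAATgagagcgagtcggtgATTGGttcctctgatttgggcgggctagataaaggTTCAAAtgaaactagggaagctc
Hmmr (chr11:40733438-40733637, minus strand): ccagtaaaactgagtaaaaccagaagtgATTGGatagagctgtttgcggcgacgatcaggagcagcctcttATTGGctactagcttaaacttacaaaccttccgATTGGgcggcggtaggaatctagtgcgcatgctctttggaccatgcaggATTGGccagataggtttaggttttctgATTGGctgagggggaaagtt
Cenpf (chr1:189688087-189688286, minus strand): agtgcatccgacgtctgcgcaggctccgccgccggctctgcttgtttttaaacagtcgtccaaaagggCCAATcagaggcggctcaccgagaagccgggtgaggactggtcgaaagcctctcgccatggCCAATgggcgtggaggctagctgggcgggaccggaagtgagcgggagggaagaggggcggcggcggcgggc
Spc25 (chr2:69206214-69206413, minus strand): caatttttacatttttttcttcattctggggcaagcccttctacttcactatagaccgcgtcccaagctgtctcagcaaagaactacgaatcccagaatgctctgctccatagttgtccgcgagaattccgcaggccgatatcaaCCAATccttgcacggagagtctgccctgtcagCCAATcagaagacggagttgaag
Nuf2 (chr1:169531465-169531664, minus strand): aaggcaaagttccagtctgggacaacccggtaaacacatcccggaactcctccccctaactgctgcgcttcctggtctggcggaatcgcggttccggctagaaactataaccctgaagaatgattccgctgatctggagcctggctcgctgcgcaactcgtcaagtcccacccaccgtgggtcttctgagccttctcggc
Kif11 (chr19:37376182-37376381, plus strand): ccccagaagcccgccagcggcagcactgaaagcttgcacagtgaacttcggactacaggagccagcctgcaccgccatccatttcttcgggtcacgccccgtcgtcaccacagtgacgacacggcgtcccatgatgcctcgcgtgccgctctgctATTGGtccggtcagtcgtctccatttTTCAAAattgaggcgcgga
Birc5 (chr11:117849037-117849236, plus strand): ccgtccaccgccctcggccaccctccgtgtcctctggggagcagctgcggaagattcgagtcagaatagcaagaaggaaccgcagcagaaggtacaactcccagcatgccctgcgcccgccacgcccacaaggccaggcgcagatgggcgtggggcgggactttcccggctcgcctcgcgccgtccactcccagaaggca
Cdc20 and Kif11 each had a CHR match near the start, beginning at positions -18 and -19, and the nearest one of Top2a began at -23. Position -1 is the base just before the start. Hmmr held 5 CCAAT matches and no CHR letters, and Cenpf and Spc25 held 2 each. Nuf2, whose fold change was the largest of the set, had neither motif in this window, and nor had Birc5, which was not called.

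Of 9 genes of mitotic entry and its transcription, 8 were tested and 3 rose, Ccnb1, Cdca3 and Top2a (gene positions here and below are on GRCm38.p6, from RefSeq). Ccnb1 (chromosome 13, 100778739 to 100786486), the regulatory subunit that activates CDK1, had 14, 8 and 6 counts in the 3 IRE1fl libraries and 26, 46 and 78 in the 3 IRE1PKO libraries. The groups did not overlap, with IRE1PKO 3 the highest, and the mean rose from 0.259 ± 0.116 to 1.27 ± 0.620 CPM (SD, n = 3 each; log2 fold change 2.29, SE 0.52, adjusted p = 0.0196). Leaving out IRE1fl 2, IRE1fl 3, IRE1PKO 2 or IRE1PKO 3 ended the Ccnb1 call (highest adjusted p 0.0809). Cdca3 (chromosome 6, 124829530 to 124833701), which promotes the destruction of the CDK1 inhibitor WEE1, had 40, 57 and 50 counts against 116, 99 and 153, also without overlap. It rose from 1.36 ± 0.255 to 3.13 ± 0.544 CPM (1.21, SE 0.26, adjusted p = 0.0149), and lost its call without IRE1fl 3, IRE1PKO 1 or IRE1PKO 3 (up to 0.0536).

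Top2a (chromosome 11, 98992947 to 99024199), the topoisomerase that untangles sister chromatids, had 64, 53 and 64 counts in IRE1fl and 84, 143 and 270 in IRE1PKO. The IRE1fl libraries were tightly grouped, and the IRE1PKO libraries were widely spread, with IRE1PKO 3 far above the rest. Top2a rose by 1.34 on the log2 scale (SE 0.36, adjusted p = 0.0477), close to the threshold, and passed in only 1 of the 6 fits that left a library out, the one without IRE1PKO 1 (adjusted p up to 0.145 in the others). It was also lost with limma-voom, without robust fitting, with halved counts and at a mean of 1 CPM. Mki67, which encodes the proliferation marker Ki-67, had 85, 30 and 95 counts against 122, 248 and 270. Its groups did not overlap, with IRE1fl 2 low and IRE1PKO 1 the lowest of its group, and it did not pass (1.51, SE 0.44, adjusted p = 0.0748). It passed with DESeq2 and without IRE1PKO 1 (adjusted p = 0.0434).

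The other members of this role did not pass. Ccna2, the cyclin of S phase and G2, had a log2 fold change of 1.39 (adjusted p = 0.120) and overlapping groups, with 10, 15 and 26 counts against 39, 24 and 83, and shares 12.5% of its exon length with Exosc9 on the opposite strand. Foxm1, the transcription factor of the program, also overlapped, at 13, 23 and 14 against 56, 21 and 59 counts (1.31, adjusted p = 0.110). Ccnb2, a second B-type cyclin, was at 1.09 (adjusted p = 0.154). Cdk1 itself had one of the smallest differences of the set, 0.52 (SE 0.31, adjusted p = 0.332), with 36, 40 and 51 counts against 66, 47 and 84. Melk, a mitotic kinase gene, was too low to be tested. It had 6, 6 and 6 counts in IRE1fl and 8, 16 and 22 in IRE1PKO.

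Of 12 genes of spindle assembly and motor proteins, 4 rose. Plk1 (chromosome 7, 122159435 to 122169884), the polo-like kinase that matures centrosomes and drives several mitotic steps, had 3, 10 and 11 counts in IRE1fl and 42, 28 and 68 in IRE1PKO. All IRE1PKO libraries were above all IRE1fl libraries, and the mean rose from 0.221 ± 0.120 to 1.17 ± 0.458 CPM (2.38, SE 0.54, adjusted p = 0.0178). The Plk1 call was lost without IRE1PKO 1 or IRE1PKO 3 (up to 0.0685). Hmmr (chromosome 11, 40701388 to 40733464), a spindle pole protein that also binds hyaluronan, had 12, 13 and 2 counts against 45, 47 and 66. It rose from 0.252 ± 0.172 to 1.35 ± 0.237 CPM (2.41, SE 0.54, adjusted p = 0.0178), and the call was lost without any one IRE1PKO library (up to 0.0592).

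The motor genes that passed were Kifc1 and Kif22. Kifc1 (chromosome 17, 33875664 to 33890633), a minus-end kinesin that bundles spindle microtubules, had 6, 17 and 11 counts against 33, 57 and 42, highest in IRE1PKO 2. Its log2 fold change was 1.85 (SE 0.48, adjusted p = 0.0359). Kif22 (chromosome 7, 127027729 to 127042467), which pushes chromosome arms towards the spindle equator, had 19, 15 and 10 counts against 45, 45 and 48. The IRE1PKO libraries were nearly equal, at 1.18 ± 0.0341 CPM against 0.407 ± 0.129 (1.53, SE 0.40, adjusted p = 0.0355). The Kifc1 call held only without IRE1fl 2 and the Kif22 call only without IRE1fl 1, and the highest adjusted p values were 0.148 and 0.116.

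Aurka, the Aurora kinase of spindle poles, was the single tested member with a fold change below 0. Its counts were 154, 97 and 76 in IRE1fl and 135, 76 and 107 in IRE1PKO, fully overlapping (-0.15, SE 0.30, adjusted p = 0.798). The sign of Aurka turned without IRE1fl 1 (0.18) and without IRE1PKO 2 (0.01). Kif11, the motor that pushes spindle poles apart, overlapped too, at 61, 40 and 50 against 48, 85 and 100 counts (0.52, SE 0.33, adjusted p = 0.358). Kif4, a chromosome-bound motor also of the central spindle, did not overlap, at 4, 13 and 6 against 24, 20 and 47 counts, and did not pass (1.84, adjusted p = 0.0680). Its exons share 15.1% of their length with Pdzd11 on the opposite strand, and the table also lists a pseudogene copy, so its reads may be split. Kif2c, which depolymerises microtubules, had 10, 0 and 8 counts against 14, 21 and 35 (1.83, adjusted p = 0.165). The 0 in IRE1fl 2 allows up to 3 counts, or 0.0851 CPM, by counting error alone, if each fragment gave 1 count. Had both mates of a pair been counted, the limit would be higher. Kif15, Tpx2, Nusap1 and Ckap2l, which move along, nucleate or bundle spindle microtubules or bind them, had log2 fold changes of 1.25, 1.18, 0.95 and 1.48, with adjusted p between 0.112 and 0.231. None of these 4 passed.

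Kinetochore genes were the role with the highest share of calls, 4 of 7 tested, and all 8 had IRE1PKO libraries above all IRE1fl libraries. Nuf2 (chromosome 1, 169497934 to 169531464), a subunit of the NDC80 complex that grips microtubule ends, had 8, 2 and 3 counts in IRE1fl and 12, 36 and 47 in IRE1PKO. It rose from 0.120 ± 0.0890 to 0.811 ± 0.444 CPM (2.73, SE 0.69, adjusted p = 0.0301), and the call ended when IRE1fl 2, IRE1fl 3, IRE1PKO 2 or IRE1PKO 3 was left out (highest adjusted p 0.114), and with limma-voom. Spc25 (chromosome 2, 69193895 to 69206213), another subunit of that complex, had far more counts, 232, 192 and 148 against 358, 286 and 360. Its rise was the smallest among the calls (0.70, SE 0.19, adjusted p = 0.0401), and it held only without IRE1fl 1 (up to 0.141 otherwise). Ndc80, the subunit that pairs with NUF2, had 10, 4 and 7 counts against 25, 22 and 15 and did not pass (1.45, SE 0.55). Per kilobase of annotated exon, Spc25 stood at 1.66 CPM in IRE1fl, Ndc80 at 0.0297 and Nuf2 at 0.0189, and in IRE1PKO the levels were 2.69, 0.0824 and 0.128. In both genotypes Spc25 was far above the other two.

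Cenpf (chromosome 1, 189640606 to 189688107) and Cenpe (chromosome 3, 135212563 to 135273540) encode a large kinetochore scaffold and a kinesin that carries chromosomes to the equator. Cenpf had 14, 12 and 8 counts against 28, 52 and 58, a rise of 1.90 (SE 0.46, adjusted p = 0.0243). Cenpe had 12, 12 and 16 counts against 36, 36 and 53, a rise of 1.53 (SE 0.40, adjusted p = 0.0366). Neither overlapped between genotypes. Without any single library the Cenpe call was lost (adjusted p 0.0828 to 0.108), and Cenpf no longer passed when IRE1fl 2, IRE1fl 3, IRE1PKO 2 or IRE1PKO 3 was left out (highest adjusted p 0.0950). Bub1b, whose product BUBR1 blocks the APC/C, had 41, 20 and 32 counts against 53, 80 and 79 (1.09, adjusted p = 0.0785), and passed with DESeq2. The checkpoint kinase gene Ttk was at 1.34 (adjusted p = 0.160). Bub1, its partner kinase in the checkpoint, was not tested, with 6, 0 and 2 counts in IRE1fl and 10, 7 and 28 in IRE1PKO.

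Both genes of the anaphase trigger were above in all IRE1PKO libraries. Cdc20 (chromosome 4, 118432901 to 118437343), the activator of the APC/C, had 22, 34 and 21 counts against 58, 67 and 120. It rose from 0.713 ± 0.219 to 2.08 ± 0.757 CPM (1.54, SE 0.37, adjusted p = 0.0246), and leaving out IRE1fl 1, IRE1fl 3, IRE1PKO 2 or IRE1PKO 3 ended the call (highest adjusted p 0.0912). Ube2c, which hands ubiquitin to the APC/C, had 30, 20 and 30 counts against 47, 50 and 70 and did not pass (0.95, SE 0.35, adjusted p = 0.114). Its exons share 22.8% of their length with Tnnc2 on the opposite strand. No source used here says whether the counting used strand, so reads of such overlapping pairs cannot be told apart. Members that rose had smaller overlaps. On the opposite strand these were 7.09% of exon length for Plk1 with Gm44985, 2.84% for Cdc20 with Elovl1 and 1.96% for Kif22 with Gm31749. Top2a shares 1.35% with Gm23451 on the same strand.

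The chromosomal passenger complex was uneven. Aurkb (chromosome 11, 69045624 to 69051664), its kinase, had 12, 12 and 6 counts in IRE1fl and 25, 27 and 73 in IRE1PKO, with IRE1PKO 3 well above the others. It rose by 1.92 (SE 0.54, adjusted p = 0.0482), but was lost without each library in turn (0.0686 to 0.192), with limma-voom and without robust fitting. Birc5, encoding survivin, had 42, 42 and 50 counts against 55, 60 and 62. Its groups did not overlap, yet the difference was small and did not pass (0.30, SE 0.29, adjusted p = 0.563). Cdca8, encoding borealin, overlapped, at 44, 60 and 44 against 52, 55 and 75 counts (0.18, SE 0.30, adjusted p = 0.752). A difference between Aurkb and its partners was not tested.

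Of 6 genes of the central spindle and cytokinesis, 1 rose. Ect2 (chromosome 3, 27097222 to 27154253), which sets off ingression of the cleavage furrow, had 34, 57 and 40 counts in IRE1fl and 113, 79 and 181 in IRE1PKO. The groups did not overlap, and the mean rose from 1.21 ± 0.357 to 3.16 ± 1.16 CPM (1.38, SE 0.33, adjusted p = 0.0240). Leaving out IRE1fl 1, IRE1fl 3, IRE1PKO 1 or IRE1PKO 3 ended the Ect2 call (highest adjusted p 0.0913). Racgap1, the centralspindlin subunit that recruits ECT2, had 26, 20 and 26 counts against 36, 54 and 104 (1.31, SE 0.41, adjusted p = 0.0721), and passed with DESeq2 and without the filter on low counts. Its motor partner Kif23 was at 0.72 (adjusted p = 0.289). Prc1, which bundles the central spindle, had 27, 16 and 33 counts against 56, 32 and 100, with IRE1PKO 2 inside the IRE1fl range (1.18, adjusted p = 0.120), and shares 11.1% of its exon length with Rccd1 on the opposite strand. Anln, the furrow scaffold anillin, was at 1.01 (adjusted p = 0.178). Kif20a, a motor of the late spindle, was at 1.13 (adjusted p = 0.246), and 29.3% of its exon length is shared with Cdc23 on the opposite strand.

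**Figure D4:**
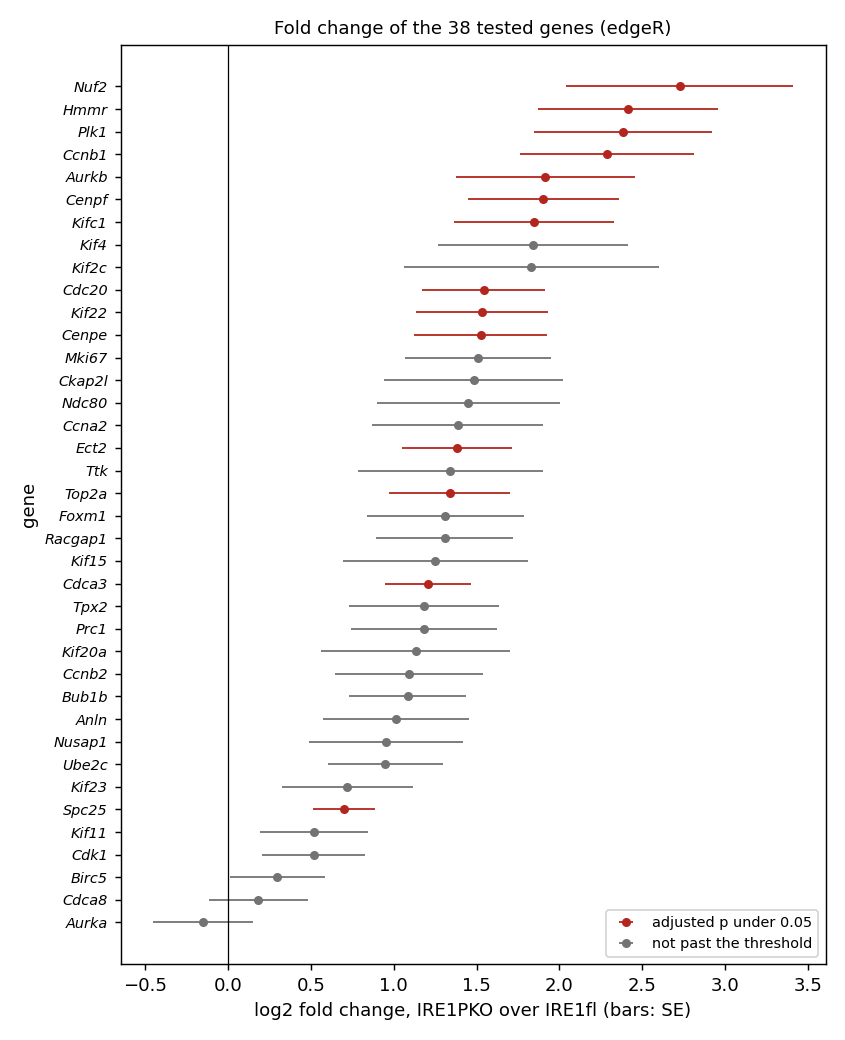
Log2 fold change, IRE1PKO over IRE1fl, of the 38 tested genes with its SE (edgeR), in order of size, with genes past the adjusted p threshold of 0.05 in red. Values run from -0.15 for Aurka to 2.73 for Nuf2, and the 14 red genes lie between 0.70 and 2.73.

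By size of fold change, the members formed a continuum. The largest values belonged to Nuf2, Hmmr, Plk1 and Ccnb1, all above 2, and the smallest to Kif11, Cdk1, Birc5, Cdca8 and Aurka, all at or under 0.52. Except for Cdca8 and Aurka, neighbours in this order differed by less than the SE of either, and differences between members were not tested. Kif4 and Kif2c, at 1.84 and 1.83, had larger fold changes than 7 of the genes that passed, with SE of 0.57 and 0.77.

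In a wider list of 80 other mitosis genes, 72 were tested, 8 rose and 1 fell, or 11.1% higher against 5.68% of all genes, with a median of 0.40. Gas2l3, a cytoskeletal linker of the dividing cell, rose by 1.35 (SE 0.20) and Arhgap11a by 1.62 (SE 0.25). Ckap2, a spindle protein, rose by 1.82 (SE 0.44). The member that fell was Ccnf, the cyclin F gene, from 25.4 ± 1.24 to 14.3 ± 3.05 CPM (log2 fold change -0.83, SE 0.14, adjusted p = 0.00526). Spc24, the partner of SPC25, had 14.3, 19.9 and 16.5 CPM against 19.8, 26.1 and 18.9 CPM and did not pass (0.35, adjusted p = 0.186). The number that rose was only 3 to 5 with each library left out, which may be near the share of all genes in those fits.

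Of 22 genes of DREAM, the B-MYB complex, E2F and NF-Y, 1 rose and 1 fell, with a median of -0.04. Each call is 4.55% of the list, near the 5.68% higher and 3.86% lower over all tested genes. E2f3 rose by 0.61 (SE 0.14), and Rbbp4, a histone-binding subunit of DREAM, fell by 0.38 (SE 0.09). No gene of the list was called higher without IRE1PKO 1, and none lower without IRE1fl 2, IRE1fl 3, IRE1PKO 1 or IRE1PKO 2. Mybl2, which encodes B-MYB, stood at 0.566 ± 0.222 CPM against 0.640 ± 0.135 CPM in IRE1PKO (0.18, SE 0.45, adjusted p = 0.847). Of 15 listed APC/C genes, edgeR called none, with 2 higher at an unadjusted p under 0.05, and DESeq2 and limma-voom called none either. Their median was 0.02.

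Genes of the earlier cell cycle were mixed. Of 37 tested S phase genes, 4 rose (10.8%) and 2 fell (5.41%), with a median of 0.24. Of all tested genes, 5.68% were called higher and 3.86% lower. Without IRE1PKO 2 only 2 S phase genes rose, near the general share of the main fit. Uhrf1, a maintenance factor for DNA methylation, rose by 1.61 (SE 0.32) and Mcm2, of the replicative helicase, by 1.13 (SE 0.20). Mcm10, a replication initiation factor, fell from 112 ± 13.3 to 68.6 ± 3.08 CPM (-0.71, SE 0.10), and Tk1, the S phase thymidine kinase, from a mean of 36.9 CPM to 16.7 ± 3.65 CPM (-1.15, SE 0.16). Of 10 G1 cyclins and kinases, 3 rose (30%), namely Cdk6 by 0.82 (SE 0.15), Myc by 1.19 (SE 0.24) and Ccnd1 by 0.81 (SE 0.20). In this list 1 gene rose without IRE1PKO 1. Of 8 tested cell cycle inhibitors, 1 rose (12.5%), Btg2 by 0.74 (SE 0.15), and none without IRE1PKO 1. Cdkn1a, encoding the CDK inhibitor p21, stood at 7.56, 3.55 and 2.16 CPM against 27.5, 13.4 and 12.8 CPM, without overlap, but did not pass (2.02, SE 0.60, adjusted p = 0.120). Differences between these lists and the mitosis members were not tested.

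**Figure D5:**
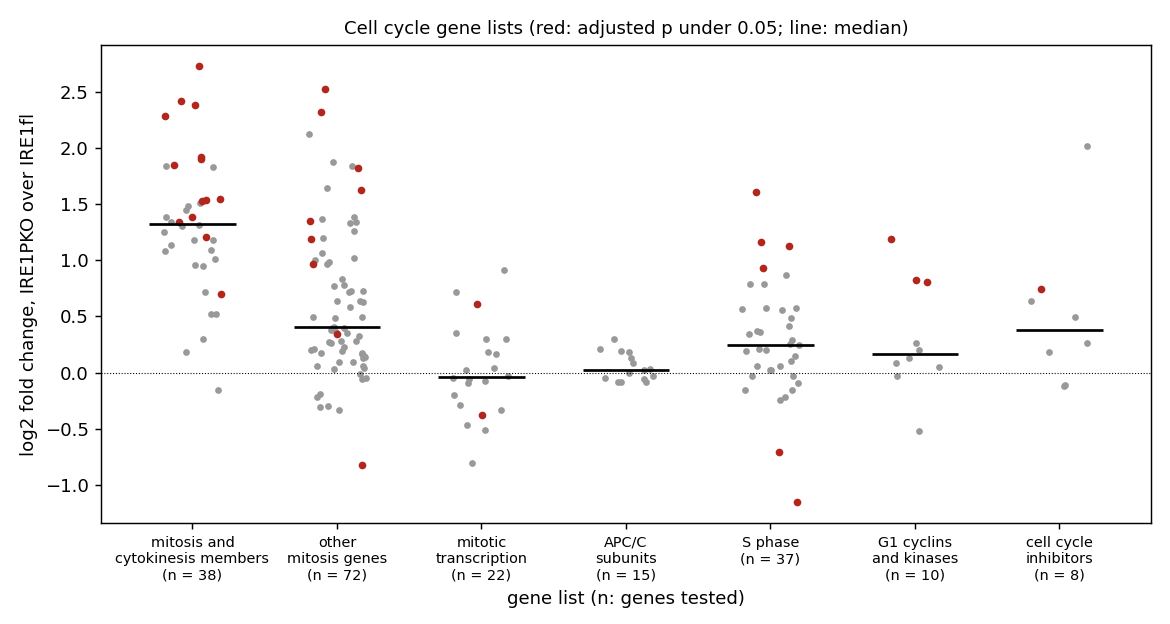
Log2 fold change, IRE1PKO over IRE1fl, of every tested gene in 7 cell cycle lists, with genes past the adjusted p threshold of 0.05 in red and the median as a black line. The mitosis and cytokinesis members have a median of 1.32, and the other lists lie between -0.04 and 0.40.

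Markers of several non-parenchymal cell types moved in the same direction. Over all tested genes 5.68% were called higher and 3.86% lower, so a single call in lists as short as these carries little weight. Recruited and lipid-associated macrophage markers had 3 of 10 higher and a sum of 16.8 to 34.2 CPM in IRE1fl against 51.2 to 62.4 CPM, with Mmp12 at 0 in IRE1fl 2. Of 10 stellate cell markers 7 rose (250.6 to 312 CPM against 476 to 490.0 CPM), and of 10 sinusoidal endothelial markers 4 rose (260.1 to 288 against 309 to 421 CPM). Of 10 Kupffer cell and macrophage markers none rose and 1 fell, with overlapping sums of 411 to 569 and 481 to 685 CPM. Of 9 T and NK cell markers 1 fell (6.51 to 6.90 against 2.98 to 4.21 CPM), and 2 of the 9 had a fold change above 0. The one that fell, Cd4, carried the lower sum, at 1.66, 3.09 and 2.91 CPM against 0.822, 0.380 and 0.587 CPM. Of 7 B and plasma cell markers 1 fell, with overlapping sums. Xbp1 made up most of these sums, at 277, 225 and 368 CPM against 203, 154 and 259 CPM, so their overlap says little of the other markers. Of 10 hepatocyte markers 5 fell, with overlapping sums. Cholangiocyte markers summed to 35.6 to 40.6 against 41.2 to 53.1 CPM, with 1 higher and 1 lower of 6. Spp1 carried the higher sum, with means of 23.3 CPM in IRE1fl and 40.8 CPM in IRE1PKO. Sox9 fell from 12.2 to 5.02 CPM. Only 2 of the 6 tested had a fold change above 0, and the median was -0.23. Erythroid markers had 1 higher and 1 lower of 8, with their highest sum, 973 CPM, in IRE1PKO 2. Neutrophil markers summed to 1.02 to 6.55 against 1.54 to 2.52 CPM, and 2 were tested. Among the IRE1PKO libraries, the recruited macrophage sum was highest in IRE1PKO 1 and the Kupffer cell and endothelial sums in IRE1PKO 2. The stellate cell sums of IRE1PKO 1 to 3 were nearly equal, at 476, 485 and 490.0 CPM, where the mitosis sums were 54.5, 62.0 and 84.5 CPM. The part of these cell types in the mitosis values was not tested.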

How the data were processed

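Poly(A) RNA of 6 liver libraries was analysed from the table of counts per gene that the authors deposited. The submitters' processing notes name mm10 as the genome. Aligner, counter and annotation were not given in any source used here. Values were whole numbers, and among values of 1 to 8 even ones were 2.58 to 3.19 times as frequent as odd ones, so both mates of a pair may have been counted (halved counts were an alternative). Depth was 35776219 to 39277435 counts per library, and 3 counts correspond to 0.0733 to 0.0851 CPM. Names that had turned into dates (27 rows, 0.178% of counts) cannot be matched to genes. No pair of libraries of a genotype was a copy of the other.

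Counts were normalised with TMM and tested with edgeR 4.0.16 in R 4.3.3 (robust quasi-likelihood fit, filterByExpr, Benjamini-Hochberg adjustment over 14954 genes), IRE1PKO against IRE1fl without a block, after tests on simulated data. Alternatives were DESeq2 1.42.0, limma 3.58.1, other scaling, filters and thresholds, a replicate block, and leaving out each library. With 3 libraries a group, an exact permutation test of a single value cannot go below p = 0.1, so none was used. The rule for names was that all 40 members are accounted for, with values per library for those called and the most abundant, and from each other cell cycle list up to 4 called genes with the smallest p, while Spc24, Mybl2 and Cdkn1a were chosen after their values were seen. Exon lengths and overlaps came from GENCODE annotation of GRCm38, coordinates and promoters from RefSeq GRCm38.p6, the same assembly as mm10. The members and all lists were chosen with earlier results of these data known.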

Additional observations from a re-analysis of the deposited data

How the results depend on the processing

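The members' fold changes kept their sign for 37 of 38 genes in every setting that tested them. Aurka, at -0.15, lay between -0.37 and 0.18 when single libraries were left out. The number of members that rose, 14, was between 0 and 8 with single libraries left out, and was 4 at a mean of at least 1 CPM. It was 18 with DESeq2 and at a threshold of 0.1, 16 without a filter, and 11 with limma-voom. It was 12 without robust fitting and 12 with halved counts. Over all genes, DESeq2 called 7.9% higher and limma-voom 5.57%, against 5.68% in the main fit. No setting called a member lower. Without IRE1PKO 3, alternatives chosen after seeing the data gave 2 (limma-voom) and 10 (DESeq2), where they called 5.55% and 7.61% of all genes higher. The cause was not tested. Their median, 1.32, ran from 1.05 to 1.47 with a library left out and was 1.10 at a mean of at least 1 CPM, where 17 genes were tested.

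Same-numbered libraries correlated at 0.102, -0.026 and 0.155 in their deviations from the group means, so the numbers were not taken to pair them, and IRE1fl 2 correlated best with IRE1PKO 1. With the replicate number as a block, 12 members rose, without Nuf2 and Aurkb, and the block gave 2 transcription control genes and 2 inhibitors higher.

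Main values were 849 for all genes called higher and 577 for all genes called lower. Leaving out a library gave 398 to 868 and 255 to 616, a threshold of 0.1 gave 1299 and 992, and DESeq2 called 1182 higher and 890 lower. Other mitosis genes called higher, 8 in all, were 3 to 5 with a library left out, 5 at a mean of at least 1 CPM, and 14 with DESeq2 and at 0.1, and their median of 0.40 ran from 0.38 to 0.53 and was 0.28 at a mean of at least 1 CPM. Transcription control had 1 gene higher and 1 lower. These became 0 to 2 and 0 to 1 with a library left out, 3 and 0 with library totals, 3 and 2 without a filter, and 4 and 2 at 0.1, with 3 higher with DESeq2. APC/C genes had 1 higher with library totals and at 0.1, with a median of 0.091 with library totals, and 0 with any library left out. With a library left out, 2 to 6 S phase genes, 1 to 3 G1 genes and 0 to 2 inhibitors were higher, and 2 inhibitors were higher with DESeq2 and without robust fitting. Library totals moved the median of all genes to 0.07. At this depth Bub1 and Melk were too low to be tested.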
